A study of Mus musculus with 199 samples.

Results

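Centromere-proximal windows were defined as the 40 kb genomic windows of the 19 mouse autosomes whose start lies from 3 Mb to below 6 Mb on the mm9 assembly. The rule uses position and no call. There were 1425 such windows among the 61816 autosomal windows of the table, 75 on each chromosome, and they were compared with the 58966 autosomal windows from 6 Mb onwards. The remaining 1425 autosomal windows, below 3 Mb, consist wholly of undetermined bases and were never called, so that the proximal windows hold the first assembled sequence of each autosome.

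Mouse autosomes are telocentric: the centromere lies at the very start of the chromosome sequence, beside long arrays of satellite repeats that the assembly represents only as a gap. The satellite arrays of several chromosomes gather in the nucleus into heterochromatic clusters called chromocentres, and the sequence next to them is therefore known for its closeness to heterochromatin and for segmental duplications. Short reads from repeated sequence cannot be placed with certainty, and a window can therefore be present in a nuclear profile without being called.

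Genome architecture mapping (GAM) infers nuclear proximity from thin cryosections: laser-microdissected slices of single nuclei (nuclear profiles, NPs) are amplified and sequenced, and windows that lie close together in the nucleus are found in the same slices more often. The 199 libraries analysed here are those that failed quality control during the development of multiplex-GAM, in which several profiles share a tube. Of these, 186 held 4 NPs each (4NP libraries), 11 were water controls and 2 held human DNA. They fall into 35 groups in 11 small experiments on the collection and amplification protocol.

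All 4NP libraries came from the same cells under the same culture, the mouse embryonic stem cell line 46C (strain 129/Ola), an E14tg2a derivative in which GFP was inserted at the Sox1 locus. Frozen cells were cut into sections of 220 nm, and the DNA was amplified with the WGA4 kit, a single-cell whole genome amplification kit, before Nextera libraries were made. The groups differed in handling. The propidium iodide (PI) experiment held 21 libraries titled PI stained and 21 titled PI stained and frozen, both at 10 µg/ml, and 1 unstained library. The proteinase K titration held 7 libraries at 1 ul csc, 2 at 1 ul mdc, 1 at 2 ul mdc and 7 each at 3 ul, 4 ul and 8 ul mdc, where csc and mdc stand as in the titles. A full collection held 34 libraries stained with 1% cresyl violet, 6 water controls and the 2 libraries of human DNA at 5 ng.

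The smaller experiments tested 1% crystal violet (16 libraries, with 5 unstained and 1 water), eosin dissolved in water (8) or in ethanol (8, with 1 unstained for both), and SYBR Gold, with 15 libraries titled stained and 3 titled unstained and 1 water control for each. Others compared freezing after incubation (2 unfrozen, 3 frozen), late (2) or early (1) freezing, 25, 23 or 20 PCR cycles (2, 1 and 2 libraries), 3 libraries each of reagent protocols a and c, and a small (2) or large kit (1) with 1 water control each. The titles name the first of these a test of cresyl violet but its stained libraries crystal violet, the name their protocols also give. The protocols give 0.5% eosin for both solvents, while the study's methods name a different concentration for each, so that solvent and concentration cannot be told apart. In the SYBR Gold experiment titles and protocols disagree on which libraries were stained, and the titles were followed. All libraries come from a single cell line and nothing in the labels says that libraries of a group came from separate cultures, so p-values measure only the spread between these libraries, which may be technical.

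Each window of each library is called (1) or not called (0), and coverage is the percentage of a set of windows that was called. Read numbers are not part of the table, and the sequencing depth behind a call is unknown here. The libraries were very unequal. The 4NP libraries had from 1 to 17643 called autosomal windows (median 1549.5), of which from 0 to 493 were proximal (median 35.5). Proximal coverage was below 1% in 70 libraries and above 10% in 39, and 20 libraries had no proximal call. Intervals given below are 95% Wilson binomial intervals, and the share allowed by a count of 0 is taken as 3 counts of the total. Both cover counting error only and take calls as independent. Calls of neighbouring windows in a library go together, as described below, so intervals over the windows of 1 library are too narrow.

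Across the 186 4NP libraries, proximal windows were called about as often as the rest of the autosomes. Proximal coverage was 5.17% ± 6.30 (SD, n = 186), with a lowest value of 0, a median of 2.49% and a highest value of 34.6%. Coverage of the rest was 4.88% ± 5.51, with a median of 2.53%. The distributions overlapped almost completely, since the spread between libraries was many times the difference within them. The proximal value was the higher of the pair in 89 libraries and the lower in 97. The mean difference was 0.290 percentage points (SD 2.19, p = 0.0723, two-sided sign-flip permutation test over libraries with 100000 resamples), which did not pass 0.05. The ratio of the pooled coverages was 1.059 ± 0.0326 (SE from leaving out each library in turn), or 1.82 SE above 1.

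This value moved to both sides of the threshold with the windows and libraries used. It shrank to 0.153 percentage points (p = 0.336, permutation test) without windows called in at least 2 water controls, to 0.200 (p = 0.214) without windows called in at least 40% of libraries and to 0.0994 (p = 0.44) with windows from 3 to 9 Mb taken as proximal. It grew in 2 settings chosen after seeing the data. With all of chromosome 14 left out, on both sides, the difference was 0.499 percentage points (p = 0.00354, permutation test) and the ratio 1.102. Chromosome 14 had few proximal calls, as described below, so leaving it out raises the difference by design. Without windows over 50% repeated it was 0.475 percentage points (p = 0.00762, permutation test). Leaving out PI stained and frozen replicate 17, proteinase K 1 ul csc replicate 5, proteinase K 3 ul mdc replicate 7 or proteinase K 4 ul mdc replicate 4 gave differences from 0.315 to 0.320 percentage points with p from 0.0453 to 0.049 in the same permutation test. Within the 11 experiments the ratio ranged from 0.676 in the reagent experiment to 1.36 in the early freezing test, and was above 1 in 7 and below 1 in 4.

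Libraries of low coverage did not carry the excess. The ratio was 0.950 ± 0.0844 over the 70 libraries whose coverage of the rest was below 1%, 1.033 ± 0.0412 over the 81 libraries from 1 to 10% and 1.084 ± 0.0496 over the 35 libraries from 10%. Each lay within 2 SE of 1, and no test of the difference between these classes was made. The plot of the libraries shows them along the diagonal of equal coverage.

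**Figure D1:**
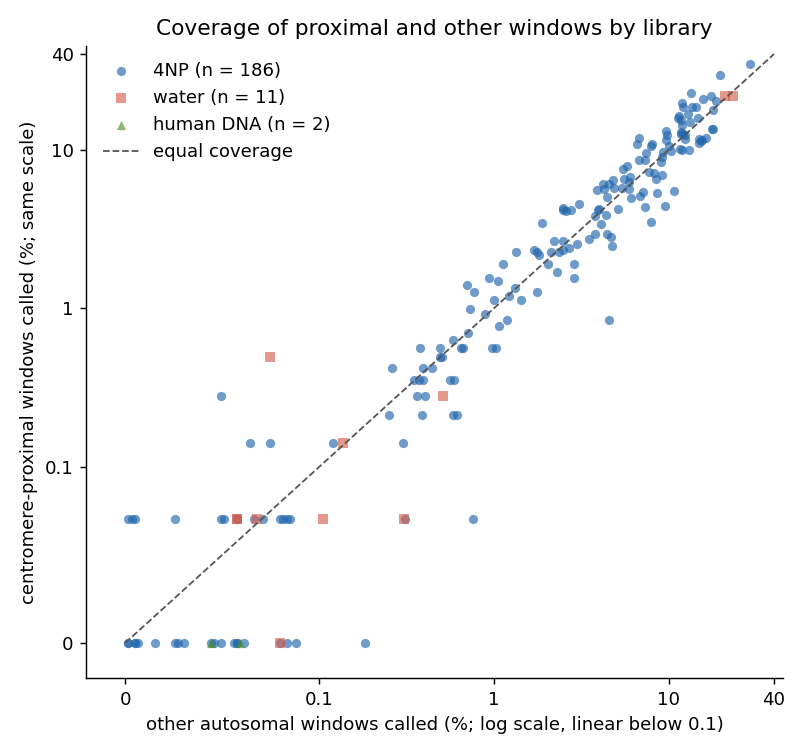
Proximal coverage against coverage of the remaining autosomal windows, both in percent of windows called on a log scale that is linear below 0.1%, with 1 point for each of the 199 libraries and the diagonal marking equal coverage. The 4NP libraries scatter on both sides of the diagonal, 89 above it and 97 below it, and 2 of the 11 water controls lie at 21.9% proximal coverage among the best covered 4NP libraries.

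The controls without mouse cells set the background. In 9 of the 11 water controls there were 18 proximal calls in all, a proximal coverage of 0.140% against 0.155% in the rest, with single controls ranging from 0 to 0.491%. The other water controls, full collection water replicate 4 and SYBR Gold titled unstained water replicate 1, each had 312 of 1425 proximal windows called, or 21.9% (interval 19.8 to 24.1%), beside 23.2% and 20.9% in the rest. These water controls exceeded most 4NP libraries, and what they contained was not tested. They shared 40 proximal windows, where the product of their shares gives 68.3. Over all 11 water controls the proximal to rest ratio was 0.992 ± 0.0665 (p = 0.766, exact sign-flip permutation test, two-sided). Neither library of human DNA had a proximal call, 0 of 1425 windows each, which allows a share of up to 0.211%, and their coverage of the rest was 0.0517%.

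Within the single groups the proximal windows again followed the rest of the genome. Of the 12 groups with at least 6 libraries, 7 had a higher and 5 a lower proximal than rest coverage, and in none did the difference pass Benjamini-Hochberg adjustment over the 12 (lowest adjusted p = 0.433, permutation tests, 0 with an unadjusted p below 0.05). Eosin is an acidic dye of proteins. In the eosin in water libraries proximal coverage had a lowest value of 4.07%, a median of 7.19% and a highest value of 11.9%. The mean was 7.24% ± 2.62 (SD, n = 8) against 5.56% ± 2.26 in the rest, a ratio of 1.30 ± 0.156, higher in 7 of the 8 libraries (exact p = 0.0625, adjusted p = 0.433). The eosin in ethanol libraries had 9.83% ± 5.56 against 8.91% ± 4.22, a ratio of 1.104 ± 0.137.

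PI intercalates into DNA. In PI stained libraries proximal coverage ran from 0 to 34.6% with a median of 6.53%, and the mean was 9.49% ± 8.09 (SD, n = 21) against 8.82% ± 6.74 in the rest. In PI stained and frozen libraries it ran from 0.140% to 13.5% with a median of 2.95%, and the mean was 4.73% ± 4.30 (SD, n = 21) against 5.31% ± 5.29. The frozen group had the higher proximal value in 7 of 21 libraries, with a ratio of 0.892 ± 0.0508, 2.13 SE below 1, although its sign-flip test did not pass (p = 0.102, adjusted p = 0.433, permutation test). The ranges of the groups overlapped over the whole span of the frozen libraries.

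Proteinase K digests the proteins of the section before amplification. Proximal coverage was 9.36% ± 3.69 (SD, n = 7) at 1 ul csc, 12.6% ± 9.04 (n = 7) at 3 ul mdc, 11.5% ± 6.22 (n = 7) at 4 ul mdc and 7.01% ± 10.6 (n = 7) at 8 ul mdc. The ratios to the rest were 0.929 ± 0.131, 1.11 ± 0.110, 1.05 ± 0.173 and 1.20 ± 0.273, each within 2 SE of 1. The mean and the ratio at 8 ul mdc leaned on replicate 3, with 29.5% against 19.6% in the rest. The next highest library there had 11.4%, and the median was 2.81%. At 1 ul mdc both libraries had no proximal call and at most 0.0153% of the rest called. The 34 libraries of the full collection had a median proximal coverage of 0.0702%, with a mean of 1.14% ± 2.96 against 1.25% ± 3.28 in the rest and a ratio of 0.911 ± 0.126. Groups of fewer than 6 libraries were not tested. Among them, proximal coverage was 14.6% against 10.0% in the rest in the 2 libraries titled frozen late (ratio 1.458), and 1.03% against 1.98% in the 3 libraries of reagent protocol c (ratio 0.519). The single libraries of protocol c had 0.0702%, 2.46% and 0.561%.

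Between groups of an experiment, proximal coverage was compared in 20 pairs of groups and the share of a library's called autosomal windows that were proximal in 12 pairs, and p-values were adjusted over the 32 tests. The proximal windows make up 2.36% of the autosomal windows from 3 Mb, so a library that samples all positions alike has a share near this value. Coverage passed adjustment in 1 pair. In the crystal violet experiment the 5 unstained libraries had proximal coverages of 10.9%, 10.9%, 18.6%, 1.26% and 0.842%. The 16 libraries with crystal violet, a basic dye that binds DNA, ran from 0.211% to 1.26% with a median of 0.421%. The groups overlapped only in the lowest unstained values, and the unstained library was the higher in 77 of 80 pairs.

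The means were 8.51% ± 7.49 (SD, n = 5) unstained and 0.487% ± 0.290 (SD, n = 16) with crystal violet, a difference of 8.02 percentage points (exact permutation test, two-sided, p = 0.000246, adjusted p = 0.00786). Leaving out 1 library at a time gave differences from 5.50 to 9.93 percentage points. The 2 groups shared none of the plate columns that the titles give, so plate column and staining cannot be told apart. Within the 5 plate rows that held both groups, the unstained mean was the higher in each, by 8.04 percentage points on average (exact permutation test within rows, p = 0.00412, the smallest these rows allow, adjusted p = 0.132), and the call was lost. Coverage of the rest differed in the same way, 8.43% ± 5.90 against 0.583% ± 0.198. The proximal share of calls was 2.15% in the unstained and 1.94% in the crystal violet libraries (adjusted p = 0.736, exact permutation test).

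The other pairs did not pass. Proximal coverage was 4.76 percentage points higher in PI stained than in PI stained and frozen libraries (p = 0.0182, adjusted p = 0.291, permutation test with 100000 resamples), while the proximal shares were 2.54% and 2.24% (adjusted p = 0.621). The proteinase K groups at 1 ul csc and 1 ul mdc differed by 9.36 percentage points (exact p = 0.0278, the smallest that 7 against 2 libraries can give, adjusted p = 0.296). The difference in share with the lowest p was that between the eosin solvents, 3.20% ± 0.672 (SD, n = 8) in water and 2.50% ± 0.707 (SD, n = 8) in ethanol, higher in 50 of 64 pairs (exact permutation test, p = 0.0636, adjusted p = 0.407). Of the 12 shares 0 passed, also without adjustment.

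The 75 proximal windows of each autosome were set against the windows from 6 Mb onwards of the same chromosome in the same libraries. Proximal coverage was the higher on 12 chromosomes and the lower on 7, with a median ratio of 1.068. Of the 19 differences, 5 had an unadjusted p below 0.05 and 1, that of chromosome 14, passed adjustment.

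Chromosome 14 had few proximal calls. Its 75 proximal windows had a coverage of 1.15% against 4.62% in the rest of the chromosome, a ratio of 0.250 ± 0.0377. The difference was -3.47 ± 0.392 percentage points (SE, n = 186; p = 1e-05, the smallest that 100000 resamples can give, adjusted p = 0.00019, two-sided sign-flip permutation test). It was lower in 166 libraries and higher in 6, and only 43 of the 186 libraries had any proximal call on this chromosome. Of the 75 windows, 38 were called in none of the 186 libraries. The sequence of these windows is highly repeated: for 74 of 75, over 50% of the sampled words of 31 bases occur elsewhere in the genome, with a median of 98%.

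The missing calls on chromosome 14 were unevenly spread along the chromosome. From 3 to 4 Mb, 15 of 25 windows were never called, and a window was called in 1.6 libraries on average. From 4 to 5 Mb, where the median repeated share was 95% instead of 100%, 2 of 25 were never called and the average was 4.28 libraries. From 5 to 6 Mb 21 of 25 were never called and the average was 0.56. Beyond the proximal region, coverage was 2.69% from 6 to 9 Mb, where the median repeated share was 94%, and 5.08% from 9 to 12 Mb, where it was 13%. The proximal windows of this chromosome overlap exons of 102 annotated genes, 62 of them protein coding and 39 pseudogenes, and 98 carry provisional Gm-number symbols. How much of the loss of calls comes from reads that could not be placed uniquely was not tested, as read placements are not part of the table.

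At the other end, proximal coverage on chromosome 11 was 7.54% against 5.67%, a ratio of 1.33 ± 0.128 (adjusted p = 0.0585, permutation test), and it was higher in 89 libraries and lower in 86. On chromosome 5 it was 6.51% against 4.90%, a ratio of 1.33 ± 0.150 (adjusted p = 0.0876), and on chromosome 7 5.81% against 4.26%, a ratio of 1.37 ± 0.150 (adjusted p = 0.062). The latter were higher in the mean but not in most libraries: on chromosome 5 proximal coverage was the higher in 61 libraries and the lower in 107, on chromosome 7 in 60 and 108. Chromosome 19, the fourth by difference, had a ratio of 1.34 ± 0.137 (adjusted p = 0.062) and was higher in 67 libraries and lower in 91. None of these passed. With windows over 50% repeated left out on both sides, a setting chosen after seeing the data, chromosomes 7, 11 and 19 passed with ratios of 1.44, 1.33 and 1.38 (adjusted p = 0.0316 each, permutation test). Chromosome 14 kept only 1 proximal window in this setting, and its value is not read. For chromosome 11 the ratio fell to 1.13 (adjusted p = 0.566) when windows called in at least 40% of the 4NP libraries were left out. After chromosome 14, the lowest ratios were 0.836 ± 0.127 on chromosome 8 (adjusted p = 0.438) and 0.848 ± 0.126 on chromosome 6 (adjusted p = 0.465).

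**Figure D2:**
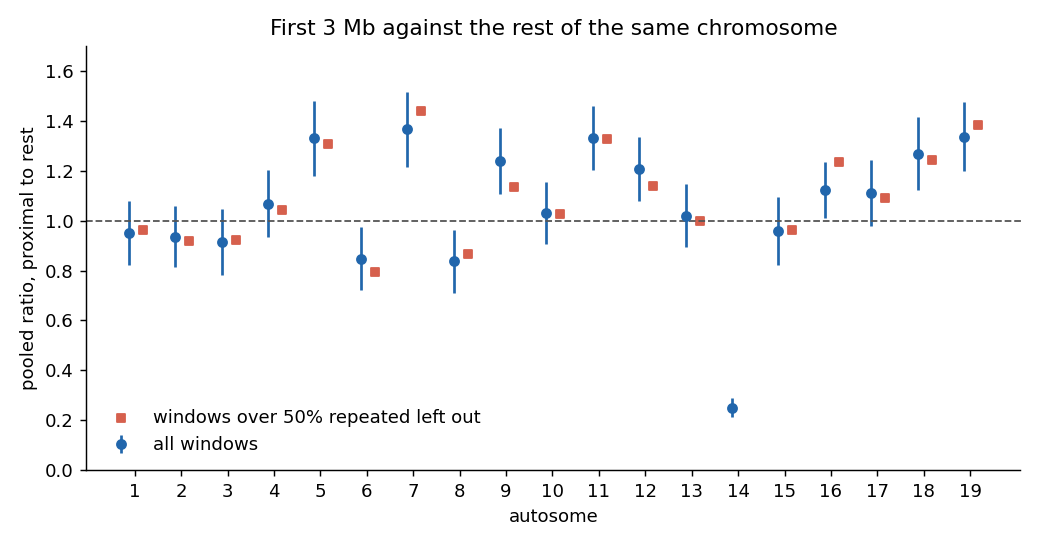
Ratio of proximal coverage to coverage of the rest of the same chromosome for each of the 19 autosomes over 186 4NP libraries, with 1 jackknife SE as error bar and a line at 1, for all windows (circles) and without windows over 50% repeated (squares). With all windows, chromosome 14 stands at 0.250, away from the other 18, which lie between 0.836 and 1.37. Chromosome 14 has no square, since only 1 of its proximal windows is left in that setting.

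To place these values among other regions of equal size, the autosomes were divided into consecutive blocks of 3 Mb (75 windows), and each block was tested against all autosomal windows. Among 794 blocks, 0.378% were called higher and 3.27% lower than the genome at an adjusted p below 0.05. Of the 19 first blocks, which are the proximal regions, 1 was called higher and 1 lower. The higher was that of chromosome 11, at 7.54% the highest of the 794 (difference 2.66 percentage points, p = 0.00018, adjusted p = 0.00715, permutation test). The lower was that of chromosome 14, in place 791 of 794 (adjusted p = 0.000611). Without adjustment, 5 of 19 first blocks and 112 of 794 blocks had a p below 0.05, or 26.3% and 14.1%. The median coverage was 5.36% over first blocks and 4.88% over all blocks. The call on chromosome 11 was lost when windows called in at least 40% of libraries were left out, and that on chromosome 14 could not be made without the repeated windows.

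Coverage was also taken in steps along the proximal region, and no test compared the steps with each other. In the first 0.5 Mb of assembled sequence, coverage was 1.148 ± 0.0454 times that of the rest of the autosomes. It was 1.024 ± 0.0425 times in the next 0.5 Mb, then 1.069 ± 0.0470, 1.115 ± 0.0506, 0.999 ± 0.0422 and 0.998 ± 0.0445 in the following steps of 0.5 Mb. The first and the fourth step exceeded 1 by more than 2 SE. Much of the value of the first step came from 3 windows called in at least 40% of libraries: without such windows its ratio was 1.038 ± 0.0453, below the 1.069 and 1.116 of the third and the fourth step. Without windows over 50% repeated it was 1.228 ± 0.0515, and without chromosome 14 it was 1.193 ± 0.0477.

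**Figure D3:**
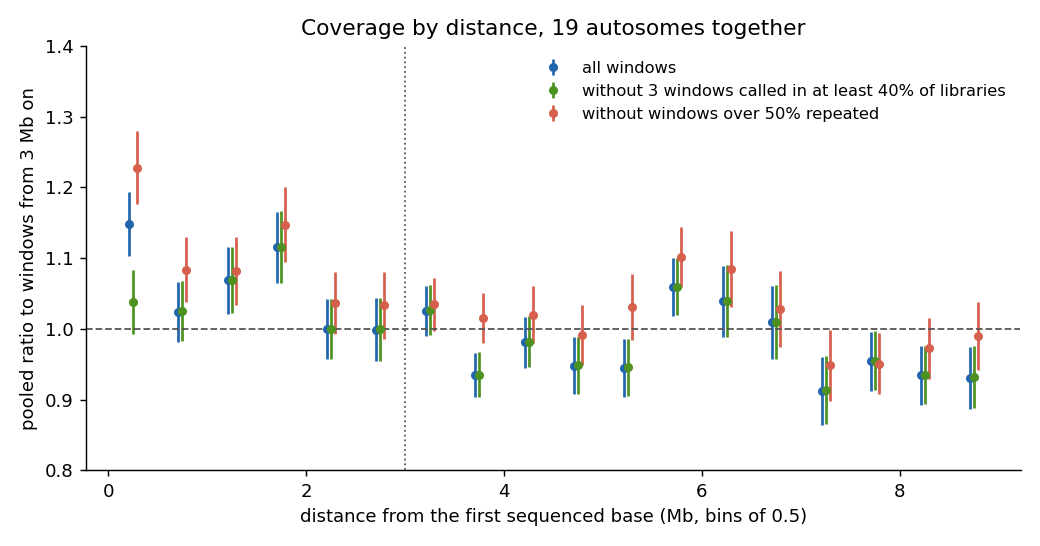
Ratio of coverage to that of the rest of the autosomes by distance from the first assembled base, in steps of 0.5 Mb, over 186 4NP libraries, for all windows, without windows called in at least 40% of libraries and without windows over 50% repeated, with jackknife SE as error bars. A dotted line at 3 Mb marks the end of the proximal windows. The first step stands at 1.148 with all windows and at 1.038 without the windows called in at least 40% of libraries.

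Single windows were described by the number of 4NP libraries in which they were called. The median was 9 libraries for proximal and for other windows alike, and the mean was 9.61 ± 5.61 (SD, n = 1425 windows) against 9.07 ± 3.66 (n = 58966). The highest count was 98 among proximal windows and 139 among the others. The middle 50% of proximal windows were called in 7 to 12 libraries. At the low end 45 proximal windows (3.16%) were never called, against 915 (1.55%) of the rest. Among windows with at most 50% undetermined bases these were 42 of 1421 (2.96%) and 461 of 58442 (0.789%). Chromosome 14 held 35 of the 42. On the other chromosomes 7 of 1349 proximal windows were never called (0.519%). The 0.789% of the rest still includes chromosome 14, so these shares are not set against each other. At the high end 3 of 1425 proximal and 4 of 58966 other windows were called in at least 40% of libraries. Of the proximal windows 46 (3.23%) were called in at least 2 water controls, against 3455 (5.86%) of the rest.

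In sequence the proximal windows were more repeated and held more starts of protein coding genes on average, unevenly over the chromosomes. Over 50% of sampled words were repeated in 174 proximal windows (12.2%) and in 2254 of the rest (3.82%). Chromosome 14 held 74 of the 174, and on the other chromosomes it was 100 of 1350 proximal windows (7.41%). The median GC content was 41.6% against 41.4%. They held 646 starts of protein coding genes, 0.453 per window against 0.352. These are descriptions of the assembly and not of the libraries, and no test was made.

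Coverage was lowest where sequence was most repeated, in proximal and other windows alike. Below 10% repeated words, 416 proximal windows had a coverage of 5.62% against 5.23% for windows of the rest. From 10 to 50% the coverages were 5.33% (834 windows) and 4.75%, and from 50 to 90% they were 4.92% (90 windows) and 4.15%. From 90% they were 1.57% (84 windows) and 0.928%, and 44 of the 84 proximal windows (52.4%) and 434 of 787 others (55.1%) were never called. In each class the proximal value was the higher, but most of the gap in the last came from a single window, chr9:3000001-3040000, described below. Without it the proximal coverage from 90% was 0.991% (83 windows), against the same 0.928%. Outside chromosome 14 there were 16 proximal windows repeated to at least 90%, of which 7 were never called, with a coverage of 4.23% that became 1.18% without the same window.

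**Figure D4:**
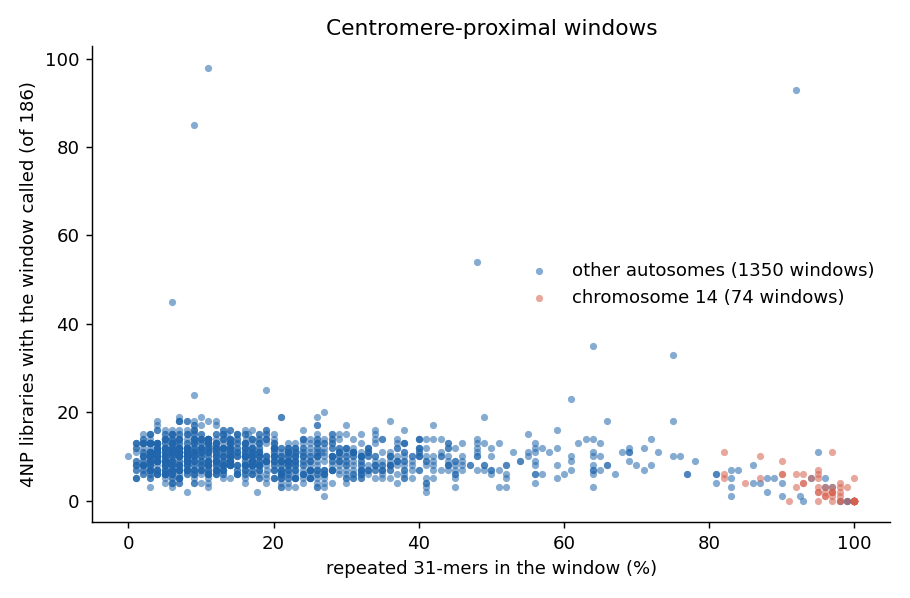
Number of 4NP libraries, of 186, in which each proximal window was called against the percentage of its sampled words of 31 bases that occur more than once in the genome, with 1 point for each of the 1424 windows that have a repeated share and those of chromosome 14 in a colour of their own. Most windows lie near the median of 9 libraries, the windows at 0 gather at the highest repeated shares and on chromosome 14, and the chromosome 11 and 9 windows called in 98, 93 and 85 libraries stand apart at the top.

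The windows at the upper end are described here one by one. They were picked for their counts, and their values are given without a test. The window called most often was chr11:3040001-3080000, in 98 of 186 libraries (52.7%, interval 45.5 to 59.7%). It overlaps exons of Sfi1, which encodes a centrin-binding protein of the centrosome, and 11% of its words are repeated. Its downstream neighbour chr11:3080001-3120000, with exons of Sfi1, Drg1 (a GTP-binding protein) and Eif4enif1 (a transporter of the translation factor eIF4E), was called in 85 libraries (45.7%). Its upstream neighbour chr11:3000001-3040000, with exons of Sfi1 and the pseudogene Pisd-ps1 and 48% repeated words, was called in 54 (29.03%). The 3 windows form a continuous stretch at the start of chromosome 11.

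The second window was chr9:3000001-3040000, the first of chromosome 9, called in 93 libraries (50.0%, interval 42.9 to 57.1%). It differs from the chromosome 11 windows in its sequence: 92% of its words are repeated, its GC content is 35.5%, and it overlaps 13 annotated genes, all with provisional symbols. It is built of tandem copies of a unit of 234 bases, the length known for the unit of the mouse major satellite, the repeat of pericentromeric heterochromatin. On average 69.4% of its bases equal the base 234 positions further on, and in 21 of its 39 stretches of 1 kb this identity exceeded 70%, with a range from 34.4% to 92.1%. The following 3 consecutive units, read from the NCBIM37 genome (the same assembly as mm9) on the plus strand at chr9:3032076-3032309, chr9:3032310-3032543 and chr9:3032544-3032777, are shown as the stretch of the window in which neighbouring units match best. Capitals mark the 11 positions at which the 3 copies are not all alike.
copy 1: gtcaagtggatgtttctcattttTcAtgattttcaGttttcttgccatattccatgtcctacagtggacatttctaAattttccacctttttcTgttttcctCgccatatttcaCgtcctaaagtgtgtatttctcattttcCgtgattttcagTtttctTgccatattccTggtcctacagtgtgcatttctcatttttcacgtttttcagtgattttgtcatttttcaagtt
copy 2: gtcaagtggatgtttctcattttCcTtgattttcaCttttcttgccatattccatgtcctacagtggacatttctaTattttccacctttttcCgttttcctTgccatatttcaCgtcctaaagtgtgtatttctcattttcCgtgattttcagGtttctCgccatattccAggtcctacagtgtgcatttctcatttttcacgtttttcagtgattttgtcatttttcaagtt
copy 3: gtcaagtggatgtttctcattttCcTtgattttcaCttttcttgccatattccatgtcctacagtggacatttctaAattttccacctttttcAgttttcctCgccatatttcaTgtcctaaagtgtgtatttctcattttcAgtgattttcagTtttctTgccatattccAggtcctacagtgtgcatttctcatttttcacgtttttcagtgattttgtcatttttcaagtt

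The copies shared 225 of 234 positions (96.2%) between copy 1 and copy 2 and 227 of 234 (97.01%) in both other pairs. Their AT content was 65.0%, 63.7% and 65.4%. As whole units each occurred 1 time in the 22 chromosomes searched, so that no unit has an identical copy there.

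The fifth window, chr17:4600001-4640000, overlaps no annotated gene, has 6% repeated words and was called in 45 libraries (24.2%). It was called in libraries of high and of low coverage alike. In the 16 crystal violet libraries it was called in 12 (75.0%), while the 3 chromosome 11 windows and the chromosome 9 window were called in 0 of 16. In the 55 libraries outside this group with less than 1% coverage, it was called in 10 (18.2%), and the 4 others were called in 4 (chr11:3040001-3080000), 4 (chr9:3000001-3040000), 3 (chr11:3080001-3120000) and 1 (chr11:3000001-3040000). In the 35 libraries with at least 10% coverage, the chromosome 17 window was called in 11 (31.4%), and the others in 35, 35, 34 and 22, in the same order.

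The libraries that called the 4 windows at the starts of chromosomes 9 and 11 had median coverages of 7.91%, 7.98%, 8.59% and 8.83%, in the same order, and those that called the chromosome 17 window one of 1.22%. Both water controls above 20% coverage called the first 4 windows. The chromosome 17 window was called instead in small kit water replicate 1 and SYBR Gold titled stained water replicate 1, both of low coverage. By group, chr11:3040001-3080000 was called in 19 of 21 PI stained libraries, in 7 of 8 libraries with eosin in water, in 7 of 8 with eosin in ethanol and in 3 of 34 libraries of the full collection, while chr17:4600001-4640000 was called in 10 of these 34.

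The following words of 31 bases from the centres of 4 named windows are printed from NCBIM37, plus strand, in lower case throughout, to set 3 of the windows called most beside one never called. A single word stands for a small part of its window.
chr11:3060001-3060031: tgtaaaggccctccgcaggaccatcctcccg
chr9:3020001-3020031: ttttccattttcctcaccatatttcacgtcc
chr17:4620001-4620031: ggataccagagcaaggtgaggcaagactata
chr14:3340001-3340031: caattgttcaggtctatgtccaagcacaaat

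The chromosome 11 and chromosome 17 words occur 1 time each in the 22 chromosomes. The chromosome 9 word occurs 3 times, all within its window, which was called in 93 libraries although 92% of its words are repeated. The chromosome 14 word occurs 42 times, each time on chromosome 14, and its window chr14:3320001-3360000, with an exon of Gm2956, was called in 0 of 186 libraries (a count of 0 allows up to 1.61%). The other windows named at the lower end were also at 0 of 186. They were chr14:3440001-3480000 (exons of Gm2963 and Gm8348), chr8:3000001-3040000, and chr7:3680001-3720000 and chr7:3800001-3840000. Both chromosome 7 windows overlap Pira5, of the paired immunoglobulin-like receptor family, whose members lie in tandem. Their centre words occur 15, 4, 40 and 10 times. Of the 45 proximal windows never called, 7 lie outside chromosome 14: 2 on chromosome 7, 1 on chromosome 8, 2 on chromosome 16 and 2 on chromosome 19.

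The remaining comparisons asked whether proximal windows were called together, since in GAM joint detection is the measure of nuclear proximity. Neighbouring windows of a chromosome lie on the same DNA strand and are often cut into the same profile. In the 110 libraries with at least 20 called proximal windows, 53.3% ± 22.6 (SD) of called proximal windows had a called neighbour, against 52.5% ± 23.6 in the rest. The 0.801 percentage points between them did not pass (p = 0.287, two-sided sign-flip permutation test with 100000 resamples) and was positive in 58 of the 110 libraries.

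Between chromosomes, joint detection was measured with normalised linkage disequilibrium (D′), which for a pair of windows is 0 when they are called independently, positive when they are called together more often and negative when less often, and is scaled to the largest value that the windows' frequencies allow. It was averaged over pairs of windows in the first blocks of different autosomes, among 1306 proximal windows called in at least 5 libraries. The mean D′ between first blocks was -0.155 ± 0.0696 (jackknife SE over 186 libraries). As a comparison, blocks further along, at the same distance from the start of each chromosome, were paired in the same way: D′ was -0.183 between the blocks next to the first, then -0.205, -0.222 and -0.239. Over all 18 other positions it ran from -0.291 to -0.183, with a mean of -0.239.

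The first blocks were thus the least negative of the 19 positions. Their difference from the mean of the others was 0.0840 ± 0.0314, or 2.68 SE, and 0 of the 18 other positions lay above them. The sign of these averages goes against a direct count: joint calls were 2.33 times the product of the windows' frequencies in the first blocks and 2.23 times in the others (2.12 to 2.38 over the 18 positions). A negative mean D′ is therefore not read here as fewer joint calls than expected. The count pools libraries of very unequal coverage without adjustment, which raises it for any windows, so its values above 1 are not read as nuclear proximity. The values are averages over sparse calls, with 4 profiles in each tube, and are given as a description of joint calls. Leaving out single libraries gave differences from 0.0672 to 0.0929.

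The difference depended on which windows and experiments were kept. Among windows called in at least 10 libraries it was 0.0428 ± 0.0238 (1.80 SE). Measured as joint calls over the product of frequencies, the difference was 0.0933 ± 0.0716 (1.30 SE), with 3 of 18 positions above. Leaving out each experiment in turn kept it beyond 2 SE in 9 of 11 cases. Without the proteinase K titration it was 0.0413 ± 0.0350 (1.18 SE), with 2 of 18 positions above, and without the PI experiment 0.0844 ± 0.0428 (1.97 SE).

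**Figure D5:**
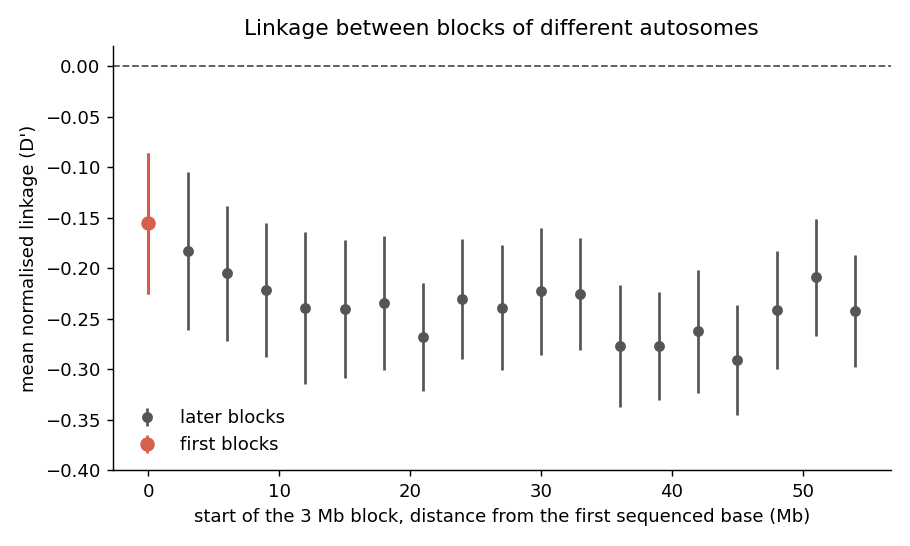
Mean D′ (no unit) between 3 Mb blocks of different autosomes at the same distance in Mb from the first assembled base, over 186 4NP libraries, with jackknife SE as error bars. The first blocks stand at -0.155 and the 18 further positions between -0.291 and -0.183.

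Within a chromosome the proximal windows gave no difference beyond 2 SE. D′ between windows 40 kb apart in the first blocks differed from the mean of the 18 other block positions by 0.00815 ± 0.0128, windows 400 kb apart by 0.0220 ± 0.0199 and windows 2 Mb apart by -0.0579 ± 0.0383. The first 2 of these turned to -0.000939 and -0.00579 when only windows called in at least 10 libraries were used.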

How the data were processed

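Per the deposited notes and the study's methods, the authors aligned reads with Bowtie2 (2.1) to mm9, removed duplicates with Samtools and used GAMtools to call a 40 kb window positive from 4 reads, the same number for every library. The deposited table holds these other units, calls of 0 or 1 per window and library. No columns of other samples were used. Windows over 50% repeated were found with 31-base words sampled every 400 bases in 22 chromosomes of NCBIM37, whose 19 autosome lengths match the table, and genes are those of GENCODE M1. Coverages were compared by two-sided sign-flip tests over libraries and groups by two-sided permutation tests, exact or with 100000 resamples, with Benjamini-Hochberg adjustment. Sign flips assume differences symmetric around 0, which sparse libraries with skewed calls need not meet. Ratios and D′ carry jackknife SE over libraries and were read at 2 SE. Shares used libraries with at least 100 called windows. Named were the 5 proximal windows with most and the 5 with fewest 4NP calls, the fewest among windows under 10% undetermined with ties in genome order (windows called in water are given as a count), and the 3 chromosomes with the highest and the 3 with the lowest difference. Chromosome 19 and the neighbouring values given in the text were added after their values were seen. Alternatives covered window sets, library sets, references and minimum calls. The scripts were tested on simulated data. Python 3.11.15, numpy 2.4.6, pandas 2.3.3, scipy 1.17.1, numba 0.67.0 and matplotlib 3.10.9 were used. The windows and their comparisons were chosen with earlier results of these data known.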

Additional observations from a re-analysis of the deposited data

Results flagged for a closer look

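Of 24 sets of group values examined (groups of 4 to 10 libraries), 4 held a library far from the others. The rule flags about 1 in 20 sets of normally distributed values, and coverages as skewed as these need not meet that rate. The sets are also not independent, since they hold several measures of the same libraries. Proteinase K 8 ul mdc replicate 3 had a proximal coverage of 29.5%, the next of the 7 libraries 11.4%, and its proximal coverage exceeded that of the rest by 9.86 percentage points, the next by 1.85. Full collection water replicate 4 had a proximal coverage of 21.9%, the next of the 6 water controls 0.491%. Eosin in water replicate 3 had a proximal share of 1.78% of its calls, the next lowest of the 8 libraries 2.99%.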

How the results depend on the processing

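Besides leaving out single libraries, 337 values of the main comparisons were recomputed: 284 kept their direction and side of the threshold, 23 came to pass it, 5 no longer passed, 3 counts moved and 22 reversed. The mean proximal minus rest difference (0.290 percentage points, ratio 1.059) passed in several settings and shrank in others. With windows below 3 Mb in the rest, which are never called and so can only lower it, the difference was 0.405 (ratio 1.085), and with proximal windows only from 3 to 4 Mb 0.432 (1.089). It shrank to 0.153 without windows called in at least 2 water controls, 0.0994 with windows from 3 to 9 Mb taken as proximal and 0.200 without windows called in at least 40% of libraries. Settings chosen after seeing the data gave 0.475 (1.096) without windows over 50% repeated, 0.409 (1.083) without these and windows called in at least 40% of libraries, 0.499 (1.102) without chromosome 14 and 0.415 (1.086) without chromosomes 11 and 14. Without chromosomes 1, 2, 3, 6 and 8 in turn it was 0.329, 0.328, 0.325, 0.339 and 0.353 (1.068, 1.067, 1.066, 1.069 and 1.073). Within experiments it reversed in the reagent experiment (-0.364, 0.676), the full collection (-0.110, 0.911), the PCR cycle test (-0.322, 0.932) and the crystal violet experiment (-0.0549, 0.978), and the early freezing ratio of 1.36 passed 2 SE. Leaving out 1 library gave 0.238 to 0.320 and ratios from 1.050 to 1.066. The cause of these changes was not tested.

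In the full collection water the difference reversed to 0.160 without windows called in at least 2 water controls. On chromosome 13 it reversed to -0.00185 without windows over 50% repeated. The 1 block called higher became 0 against blocks of its own chromosome and 0 without windows called in at least 40% of libraries, and the 1 called lower became 0 without the repeated windows. The neighbour difference reversed to -0.901 with 2 windows on either side and to -0.0535 without windows called in at least 40% of libraries. Proximal shares reversed to -1.57 for full collection against water with at least 20 calls, to -0.0255 for proteinase K 1 ul csc against 8 ul with at least 500 calls and -1.87 in percentage points of coverage, to -0.122 and -0.0778 for 3 against 4 ul with at least 500 calls and without windows called in at least 40% of libraries, and to -0.569 for 4 against 8 ul in percentage points of coverage. On the log10 scale, coverage reversed for 1 ul csc against 3 ul (0.0440) and for 3 against 4 ul (-0.0969). The D′ difference between chromosomes no longer passed 2 SE at 0.0428, 0.0933, 0.0844 and 0.0413 for windows in at least 10 libraries, joint calls over expected, and without the PI experiment and the proteinase K titration, and within chromosomes it reversed to -0.000939 at 40 kb and -0.00579 at 400 kb for windows in at least 10 libraries.
Between groups, leaving out 1 library turned the sign of some differences in proximal coverage, which ranged from -1.02 to 0.175 for reagent protocols a and c (positive without replicate 2 of c), from -0.403 to 3.15 for proteinase K 3 and 4 ul, from -1.22 to 17.2 for post-incubation unfrozen and frozen (negative without unfrozen replicate 1) and from -3.42 to 0.955 for the full collection and its water (positive without water replicate 4). Shares ranged from -0.0255 to 0.675 for proteinase K 1 ul csc and 8 ul, -0.168 to 0.273 for 3 and 4 ul, -0.129 to 0.789 for the full collection and its water, -0.208 to 0.637 for unstained and crystal violet, and -1.39 to 0.980 for SYBR Gold titled stained and unstained. None of these differences passed.

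By replicate number, no paired analysis was possible because the titles name plate wells and give no replicate numbers. Plate columns and rows were used as blocks instead. For the eosin solvents the 8 shared rows paired the 16 libraries. Between proteinase K 1 ul csc and 3 ul mdc the 7 shared rows paired the 14 libraries. Among the groups compared, plate columns were shared only within the full collection. Within the 6 columns shared by 4NP libraries and water, a comparison added after seeing the data, the difference in coverage was -3.16 percentage points (exact permutation test within columns, adjusted p = 0.513). Plate rows, also added after seeing the data, were shared in 25 comparisons, of which 0 passed when libraries were permuted within rows (2 with an unadjusted p below 0.05). Unstained against crystal violet coverage kept its size there (8.04, adjusted p = 0.132, exact permutation test). Its rows allow too few arrangements for any outcome to pass adjustment, as do those of the comparisons with proteinase K 1 ul mdc. SYBR Gold titled stained against unstained reversed to -0.105. Coverage near 0 in many libraries, calls without read numbers and groups of 1 to 3 libraries limit the detectable differences.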
